A study of Mus musculus with 42 samples.

Results

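The proteasome genes of mouse testes and brain are described here in mice with and without a working Pcif1 gene. They are the 50 protein-coding genes present in both deposited tables whose symbol starts with Psm, then a letter from a to g, then a digit, out of 17053 protein-coding genes and 26468 genes of any kind in both tables. Of these, 19 encode subunits of the 20S core (8 of the alpha ring and 11 of the beta ring). A further 25 carry the Psmc, Psmd and Psme names of the regulatory particles: 6 ATPases and 11 non-ATPase subunits of the 19S particle, 5 activators, and the assembly chaperones Psmd5, Psmd9 and Psmd10. Psmf1 encodes an inhibitor and Psmg1 to Psmg4 encode chaperones of core assembly, which makes 5 more. The last of the 50, Psmc3ip, matches the name rule, but its product is a partner protein of meiotic recombination and not a proteasome subunit, so it is kept apart and 49 genes remain without it. The genes lie on 16 chromosomes, with 10 of them on chromosome 11. The brain table holds 51 entries by the name rule, and its additional entry for Psme2 was left out.

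PCIF1 is the methyltransferase that makes m6Am, a methylated adenosine that occurs next to the cap when transcription starts at an adenosine, and the study compared adult mice with and without it. In B6D2F1/J embryos, a hybrid of C57BL/6J with DBA/2J, Cas9 was used to delete a short stretch of Pcif1 from every cell, which takes out catalytic residues and brings a stop codon forward. Founders were bred to C57BL/6J, and per the labels all animals come from 1 such line. The labels list 42 samples in 14 groups, of which 24 libraries in 8 groups are used here, with 3 libraries per group, and the tissue RNA-seq libraries were not analysed here. The testes groups are Pcif1 heterozygous (HET) and Pcif1 knockout (KO), each with an input library and an m6A_IP library of the m6Am-Exo-Seq assay, so the testes controls carry 1 deleted allele. That assay is known to keep capped 5′ ends by digesting other RNA from its 5′ end and then to precipitate with an antibody that recognises m6Am as well as m6A. Whether the input libraries were taken before or after that digestion is not given in the sources used here. Testes input values therefore need not stand for levels of whole transcripts. The brain groups are wild type (WT) and KO, each with an input RNA library and a library of ribosome footprints, the fragments that ribosomes protect from RNase I in lysates made with cycloheximide. The labels describe brains of 3 WT and 3 KO mice. No replicate numbers are given there, and the numbers used below follow accession order and pair nothing. Whether the testes libraries came from separate animals is not given in the sources used here, so for them p-values speak only of the spread between samples, which may be technical.

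The proteasome degrades proteins marked with ubiquitin. Its 20S core is a barrel of alpha and beta rings in which the beta subunits Psmb5, Psmb6 and Psmb7 carry the cutting sites, and its 19S particle recognises, unfolds and feeds in the substrate. Psmb8, Psmb9 and Psmb10 replace the constitutive cutting subunits in immune cells, Psmb11 does so in the thymus, and Psma8 replaces Psma7 in meiotic and later germ cells, while Psme1 and Psme2, Psme3, and Psme4 form alternative caps on the core.

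Since PCIF1 acts on adenosine at the cap, the annotated first transcribed base of each gene is given first. RefSeq promoters (GRCm38.p6) were matched for 42 of the 50 genes, 45 promoters in all. They start with A in 11 promoters, with C in 9, with G in 22 and with T in 3. Over all 32851 promoters of the table the shares are 34.4% A, 16.3% C, 35.6% G and 13.7% T. The windows below hold the 20 bases before and the first 10 bases after the annotated start, and the capital marks the first transcribed base. The first 5 belong to genes whose IP enrichment differed between HET and KO, and none of them starts with A. The windows lie at chr9:54950839-54950868 (plus strand) for Psma4, chr3:94886949-94886978 (minus) for Psmb4, chr11:107479508-107479537 (plus) for Psmd12, chr2:151741301-151741330 (minus) for Psmf1 and chr11:101095426-101095455 (minus) for Psmc3ip. The 4 that follow start with A: Psma7 at chr2:180042455-180042484 (minus), Psmb3 at chr11:97703414-97703443 (plus), Psmd9 at chr5:123228170-123228199 (plus) and Psme3 at chr11:101316193-101316222 (plus).
Psma4: tccgggttggttcttctccaGctgagtaaa
Psmb4: gcgtggcaaaggaccacttcCgtttccggt
Psmd12: cgacttccggtgcgagtgacGagtggtggc
Psmf1: caacaagtatttccggtgcgCgtctctgcg
Psmc3ip: tcccgcctcctcaccggaagGaggcgtttc
Psma7: ccgcacgtccccctgacgccAgacgccagc
Psmb3: gcgttgaccctgagaaagccAgagccggtt
Psmd9: acttccaagctccacccttcAtctgtttcc
Psme3: ccggcgattggctgtgacgcAacttccggc

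The same promoters, from 250 bases before to 50 after the start, were searched on both strands for 2 motifs, neither of which contains the other. The antioxidant response element core TGACNNNGC, the element that the proteasome regulators NFE2L1 and NFE2L2 are known to bind, was in 6 of the 45 promoters (13.3%), against 12.4% of all promoters. CCAAT was in 15 of 45 (33.3%), against 37.4% of all promoters. The windows of the cutting subunits Psmb5 (chr14:54618023-54618052, minus) and Psmb6 (chr11:70525338-70525367, plus) are shown as examples, with the first motif on the strand of the gene, in capitals. Psmd9 holds it on that strand as well, and Psmc6, Psmd12 and Psme4 hold it on the opposite strand. A match is a description of letters and not a site.
Psmb5: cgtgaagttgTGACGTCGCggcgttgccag
Psmb6: ctaaagagagTGACGGAGCgctttacgacg

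Values are a signal, the authors' scaled read number of a gene in a library, which is not divided by gene length, so levels are compared between libraries and not between genes. Testes libraries held 1816831 to 6574479 reads recovered from these values, with KO IP replicate 2 the shallowest, while the depth of the brain libraries is unknown. Pcif1 itself had 5.53, 7.39 and 10.4 in HET and 7.98, 6.75 and 1.64 in KO testes inputs, and 253, 318 and 388 in WT and 255, 201 and 259 in KO brain inputs, and since the deletion is small these totals check no label. Its IP values were 1.49, 5.88 and 8.04 in HET against 8.98, 0 and 6.31 in KO, and its footprints 242, 229 and 234 in WT against 354, 302 and 182 in KO. The testes libraries had spermatid, spermatocyte and spermatogonia markers and the brain libraries neuronal markers, with none of the 10 neuron markers listed at 0. Some marker lists differed by genotype. In testes inputs the summed signal of 14 round spermatid markers was 5376 to 5844 in HET and 4130 to 4623 in KO (4 of 11 tested lower, 1 listed at 0 in each group), and that of 12 elongating spermatid markers 17500 to 19470 and 15130 to 15720 (2 of 10 lower, 1 listed at 0 in KO). The sum of 10 spermatogonia markers was 397.7 to 423 in HET and 486 to 542.3 in KO (0 of 7 called), and that of 12 spermatocyte markers 4802 to 4962 and 4361 to 4755 (2 of 11 higher, 2 lower). Although that spermatocyte sum was lower in KO, 8 of the 11 tested genes had a log2 fold above 0, with a median of 0.21. The 9 Sertoli markers summed to 545 to 637.2 in HET and 629.2 to 702 in KO (1 of 5 higher). In brain inputs the 9 oligodendrocyte markers summed to 21320 to 22450 in WT and 31350 to 33550 in KO (1 of 9 higher) and the 9 microglia markers to 1311 to 1462 and 1013 to 1118 (0 of 8 called), and the 8 astrocyte markers to 15660 to 16950 and 18020 to 18510 (0 of 8 called). In whole tissue, fewer cells of a type and less RNA per cell cannot be told apart, and the part of these shifts in the results below was not tested. Members with near-identical copies, such as Psme2 with Psme2b, can share reads, and how such reads were counted is not given in the sources used here, so their values are uncertain.

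In testes input RNA, 4 proteasome genes were higher in KO than in HET and none was lower. They were Psma7, an alpha ring subunit, Psmd14, the 19S enzyme that removes ubiquitin chains, and Psme1 and Psme2, which together form the interferon-inducible activator cap. Psma7 had a signal of 454, 554 and 485 in HET and 644, 774 and 637 in KO. Psmd14 had 192, 225 and 238 in HET and 278, 314 and 284 in KO. All 3 KO values lay above all 3 HET values for both genes. The log2 folds of signal + 1 were 0.46 ± 0.10 (SE, n = 3 per group; limma, Benjamini-Hochberg adjusted p = 0.0167) for Psma7 and 0.42 ± 0.11 (adjusted p = 0.0325) for Psmd14. Psme1 had 342, 263 and 264 in HET and 356, 394 and 407 in KO, with a log2 fold of 0.42 ± 0.12 (adjusted p = 0.0372). Psme2 had 209, 183 and 245 in HET and 270.3, 290.2 and 275 in KO, with a log2 fold of 0.40 ± 0.12 (adjusted p = 0.0476). The groups did not overlap for these 2 either, and for Psme1 the highest HET library, at 342, lay just under the lowest KO library, at 356.

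The 4 higher and 0 lower calls were among 44 genes of the 50 that reached the minimum signal of 10 in 3 or more libraries. Over all 11278 genes tested with limma, 9.33% were called, 3.32% higher and 6.01% lower. At an unadjusted p under 0.05, limma gave 6 proteasome genes higher and 4 lower (22.7% of them, against 26.1% of all genes). On recovered whole reads edgeR called 4 higher and 0 lower (7 and 4 unadjusted) and DESeq2 5 and 0 (6 and 2 unadjusted). The unadjusted shares were 25.0% with edgeR, against 26.3% of all genes, and 18.2% with DESeq2, against 19.9%. The median log2 fold of the 44 was 0.13, against -0.01 over all genes, with 28 above 0 and 16 below. The core genes had a median of 0.15 with 13 of 16 above 0, and the regulatory genes 0.10 with 13 of 23. KO and HET libraries did not overlap for 10 of the 44 on the higher side (13.3% of all genes), a share above that of all genes, and for 3 of the 44 on the lower side (16.5% of all genes), a share below it. The calls hung on single libraries: 0 were left higher without KO replicate 2 and 1 without any one of HET replicates 1, 2 and 3 or KO replicate 3, while without KO replicate 1 there were 6 higher and 2 lower. With the spread estimated over all 12 testes libraries none of the 4 was called (adjusted p from 0.354 to 0.429). Dividing by the protein-coding total instead turned the split over all genes from 374 higher and 678 lower to 635 and 432, with 5 proteasome genes higher and 0 lower.

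**Figure D1:**
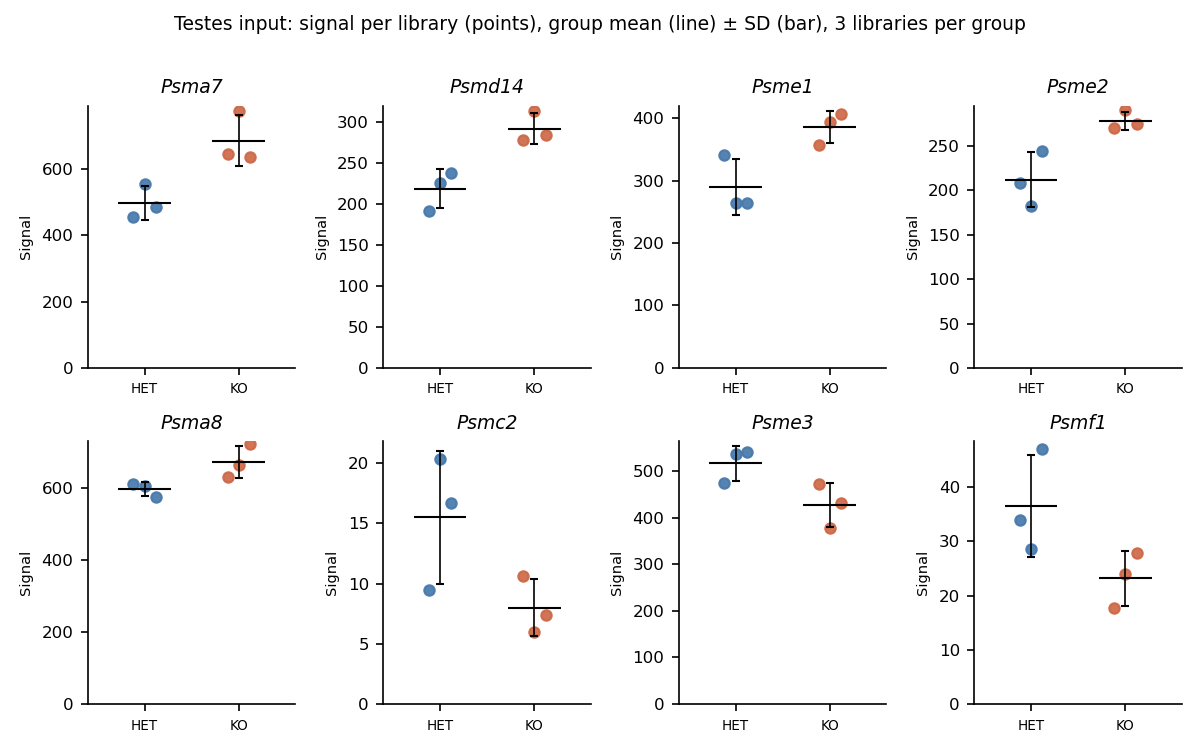
Signal per library (points, linear axis from 0), group mean (line) and SD (bar) in testes input RNA of HET and KO mice, 3 libraries per group, for 8 genes. The KO points of Psma7, Psmd14, Psme1 and Psme2 all lie above the HET points, and those of Psme3 and Psmf1 all lie below, of which only the former 4 passed limma's test.

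None of the other core genes passed the test. Psma8, the germ cell counterpart of Psma7, had 610.3, 605 and 574 in HET and 631, 662 and 721 in KO, groups that did not overlap, with a log2 fold of 0.17 ± 0.0858 (adjusted p = 0.23). The cutting subunits had folds of 0.34 ± 0.33 for Psmb5, 0.14 ± 0.14 for Psmb6 and 0.03 ± 0.28 for Psmb7 (adjusted p = 0.544, 0.575 and 0.954). The immune subunit Psmb10 was low, at 13.4, 19.4 and 2.39 in HET and 20.4, 26.2 and 10.6 in KO, with 1 HET library at 2.39 and a fold of 0.92 ± 0.55 (adjusted p = 0.309). Psmb9 lay below the filter, at 3.16, 4.62 and 3.19 in HET and 16, 9.75 and 9.0 in KO. Its KO values were all higher, but no test was run on them. Psmb8 and Psmb11 were listed at 0 in all 3 HET inputs and reached 1.50 and 0.75 in KO replicate 2.

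Outside the core, Psme3, which forms the nuclear activator cap, had 474, 537 and 541 in HET and 473, 379 and 431 in KO (log2 fold -0.28 ± 0.10, adjusted p = 0.107). Psme4, the activator known for acetylated histones in spermatids, had 81.4, 57.3 and 80.5 in HET and 86, 69.7 and 60.5 in KO, overlapping groups with a fold of -0.02 ± 0.19 (adjusted p = 0.967). Psmf1, the inhibitor, had 34, 28.6 and 47 in HET and 17.7, 24 and 27.8 in KO, with a fold of -0.63 ± 0.26 (adjusted p = 0.138). Neither Psme3 nor Psmf1 overlapped between groups, although the nearest Psme3 libraries lay at 474 and 473, and neither passed the test. The 6 tested assembly chaperones had folds from -0.19 to 0.44 with none called, and Psmc3ip had -0.06 ± 0.0886. Psmd7, Psmg4 and Psme2b were not tested: Psmd7 lay between 2.25 and 7.39 in the inputs, and Psmg4 and Psme2b were listed at 0 in 5 of 6.

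The other genes of the pathway that passed the test in these libraries were on the lower side. Of 31 listed genes for ubiquitin supply, substrate delivery and proteasome regulation, 29 were tested, 0 were higher (3.32% of all genes) and 5 lower (6.01% of all genes), with a median log2 fold of 0.01. Nfe2l2, an activator of proteasome genes under oxidative stress, had 38, 30.5 and 35.1 in HET and 13.3, 16.5 and 18 in KO, a fold of -1.07 ± 0.24 (adjusted p = 0.0165). Every KO library lay below every HET library. Also lower were Ufd1 (-0.45), Ngly1 (-0.46) and Bag6 (-0.33). Of 10 antigen presentation genes 6 were tested, with Tap1, the peptide transporter, higher at 1.42 ± 0.32 (adjusted p = 0.0164, 5.53, 8.31 and 6.37 in HET, 20.4, 21 and 17.2 in KO) and the class I gene H2-K1 lower at -1.02 ± 0.19 (adjusted p = 0.0067, 642, 412 and 521 in HET, 181, 335 and 272 in KO). The class I gene H2-D1 went the other way, at 32.4, 28.6 and 13.5 in HET and 50.5, 44.25 and 39.3 in KO, and was not called. Why these genes differ was not tested.

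The question put to the m6Am-Exo-Seq libraries is which transcripts the antibody enriches with PCIF1 present and which lose that enrichment without it. Within HET, 6 proteasome genes were higher in the IP than in the input and 8 were lower, of 44 tested. Over all 12387 genes 30.1% were called, 14.7% higher and 15.4% lower, so the genes stood close to that background, with a median log2 enrichment of 0.08 against 0.02 over all genes. The parts of the particle differed in their counts: of the 8 alpha ring genes 4 were lower and 1 higher with a median of -0.43, of the 8 tested beta ring genes 0 were lower and 1 higher with a median of 0.08, and of the 23 tested regulatory genes 4 were lower and 4 higher with a median of 0.18. These medians are descriptions, with no test between them, and scaled to the protein-coding total those of the proteasome genes (45 then tested) and of the beta ring (9) turned to -0.11 and -0.36. In the beta ring 4 genes lay above 0 under both scalings, so the turn of its median also reflects the added gene. The median over all genes moved to -0.12. IP and input libraries did not overlap for 9 genes on the higher side (22.8% of all genes) and 9 on the lower side (23.1%). The lower calls were 5 without HET input replicate 1.

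Among the enriched genes of HET testes, Psmb4, a beta ring subunit, had 1346, 1566 and 1514 in the input and 2473, 2560.0 and 2912 in the IP, an enrichment of 0.84 ± 0.12 (adjusted p = 6.24e-05). Psme1 had 424, 483 and 526 in the IP beside the input values given above, an enrichment of 0.73 ± 0.16 (adjusted p = 0.0026). Psme3 had 761, 760.2 and 874 in the IP, an enrichment of 0.63 ± 0.16 (adjusted p = 0.00831). All IP libraries of these 3 genes exceeded all their inputs. Psmd9, a chaperone of 19S base assembly, had 304, 312 and 307 in the input and 583, 387 and 449 in the IP (0.60 ± 0.16, adjusted p = 0.0101). The ATPase Psmc3 (0.54 ± 0.11) and the alpha ring gene Psma4 (0.43 ± 0.15, adjusted p = 0.0429) complete the list, and their libraries are given with the difference between genotypes.

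The depleted genes reached larger folds. Psma5, an alpha ring subunit, had 28.5, 29.6 and 33.5 in the input and 7.46, 3.27 and 3.57 in the IP, a log2 fold of -2.52 ± 0.39 (adjusted p = 0.000192). Psmd11, a 19S lid subunit, had 1542, 1544 and 1581 in the input and 499.7, 529.6 and 439 in the IP, a fold of -1.67 ± 0.13 (adjusted p = 3.49e-07). Psme4 had 26.9, 18.9 and 23.2 in the IP, a fold of -1.62 ± 0.29 (adjusted p = 0.000564). For each of the 3, the highest IP library lay below the lowest input. Psma7 had 185, 278 and 202 in the IP (-1.18 ± 0.18), and Psma8 494, 424 and 388 (-0.46 ± 0.13, adjusted p = 0.013), so both counterparts were depleted. Psmd13 (-0.77 ± 0.14), Psme2 (-0.53 ± 0.16) and Psma3 (-0.46 ± 0.17, adjusted p = 0.0444) were lower too. Of the 14 calls, 10 were kept in each alternative run.

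Within KO, 5 proteasome genes were higher in the IP than in the input and 19 were lower (18 without Psmc3ip), of 44 tested. Over all genes 45.5% were called, 21.2% higher and 24.3% lower. The median of the 44 was -0.43, against -0.07 over all genes. The core carried 9 of the lower calls among its 16 tested genes, with a median of -0.77 and 6 of 8 alpha ring genes lower, and the regulatory genes 6 of 23, with a median of -0.06. Libraries did not overlap for 8 genes on the higher side (26.0% of all genes) and 20 on the lower side (29.0%). Scaling to the protein-coding total moved the median of all genes in this comparison from -0.07 to -0.22 and in HET from 0.02 to -0.12. It gave 3 higher and 22 lower of 45 proteasome genes in KO, and over all genes 2054 higher and 3607 lower (36.3% of the calls higher, from 46.7%), and in HET 1313 and 2436 (35.0%, from 48.8%), with 5 and 9 proteasome genes.

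The 5 enriched genes of KO testes were Psmd1, a scaffold of the 19S base, Psmd12, a lid subunit, Psmd9, Psme1 and Psmb4, named although Psmd1 and Psmd12 lie outside the 12 largest folds of this comparison. Psmd1 had 149.8, 173 and 141 in the input and 256, 275 and 307 in the IP, an enrichment of 0.85 ± 0.17 (adjusted p = 0.000716). Psme1 had 463, 628 and 580.2 in the IP (0.52 ± 0.16), and Psmd9 458, 434 and 361 (0.57 ± 0.16). Among the depleted genes Psma7 had 226, 156 and 199 in the IP against 644, 774 and 637 in the input, a fold of -1.83 ± 0.18 (adjusted p = 1.18e-06). Psmg2, a core chaperone, had 22.2, 31.5 and 25.4 in the input and 13.5, 2.20 and 12.6 in the IP (-1.66 ± 0.53, adjusted p = 0.0183). The cutting subunit Psmb5 was low in both, at 17.7, 21.8 and 13.9 in the input and 12, 2.20 and 6.31 in the IP (-1.46 ± 0.49, adjusted p = 0.0237), and Psmg3 at 15.1, 23.3 and 15.5 in the input and 7.48, 6.61 and 4.50 in the IP (-1.39 ± 0.41). The value of 2.20 in Psmg2 and Psmb5 is the smallest signal above 0 in KO IP replicate 2, the shallowest library. Without that library neither gene was called (limma, adjusted p = 0.0812 and 0.0966). The call of Psmb5 was also lost with DESeq2 and without a filter. Psmb2 (-1.62 ± 0.20), Psma3 (-1.21 ± 0.17), Psmf1 (-1.19 ± 0.32), Psmd11 (-1.18 ± 0.13), Psmb6 (-1.17 ± 0.30), Psma4 (-1.11 ± 0.15), Psma5 (-1.04 ± 0.39, adjusted p = 0.0404) and Psmd13 (-0.92 ± 0.14) were also lower. In each of these genes the IP and input libraries did not overlap. Of the 24 calls, 14 were kept in each alternative; leaving out KO input replicate 2 left 11 lower, and leaving out KO input replicate 1 or KO IP replicate 2 left 3 higher.

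The genotypes were compared by testing the difference between both enrichments, KO minus HET. As each library is scaled by 1 factor, this difference is relative to the other genes and cannot show a change shared by all. It was lower in 6 proteasome genes (5 without Psmc3ip) and higher in 1, of 44 tested, while 9.97% of all 12387 genes were called, 6.25% lower and 3.72% higher. The lower ones were Psma4, Psmb2, Psmb4, Psmc3, Psmf1 and Psmc3ip, and the higher one Psmd12. Of the lower ones, Psma4, Psmb4 and Psmc3 were called enriched in HET. Psmb2, Psmf1 and Psmc3ip were not, so for them no loss of a called enrichment is shown. The median difference was -0.32 for the 44 genes against -0.01 over all genes, with 32 of 44 below 0. The core had a median of -0.58 with 13 of 16 below 0, and all 8 tested beta ring genes were below 0 (8 of 9 when scaled to the protein-coding total), 2 of them called. The regulatory genes had a median of -0.20 with 15 of 23 below 0.

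Psma4 had the lowest adjusted p. Its signal in HET was 214, 202 and 228 in the input and 280.5, 276 and 311 in the IP, and in KO 206, 233 and 264 in the input and 98.8, 108 and 116 in the IP. The IP lay above the input in all HET libraries and below it in all KO libraries, and the difference in log2 enrichment was -1.54 ± 0.21 (SE, 3 libraries in each of 4 groups; limma, Benjamini-Hochberg adjusted p = 0.000761). Psmb2 had 299.6, 324 and 275 in the input and 172, 303 and 214 in the IP of HET, and 311, 352 and 369.8 in the input and 92.8, 108 and 137 in the IP in KO. HET IP and input overlapped while the KO IP lay far below its input, a difference of -1.20 ± 0.28 (adjusted p = 0.016). These 2 calls were kept in all 19 alternatives, with adjusted p from 1.71e-08 to 0.00461 for Psma4 and from 0.00125 to 0.0488 for Psmb2.

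Psmc3, an ATPase of the 19S base, had 8521, 7878 and 8387 in the input and 11354, 13365 and 11384 in the IP of HET. In KO it had 7003, 7906 and 7403 in the input and 7547, 6618 and 6866 in the IP. It was enriched in HET, and in KO its IP and input overlapped (-0.09 ± 0.11), a difference of -0.63 ± 0.16 (adjusted p = 0.0209). Psmb4 was enriched in both genotypes, less in KO, where it had 1661, 1652 and 1546 in the input and 1935, 2160.4 and 1882 in the IP, a difference of -0.55 ± 0.16 (adjusted p = 0.0447). Psmf1 had 41.8, 60.1 and 42 in the HET IP and 12, 11 and 6.31 in the KO IP beside the inputs given above, a difference of -1.58 ± 0.46 (adjusted p = 0.0398). At these low values the KO IP lay below all other libraries of this gene. Psmc3ip had 777, 822 and 859 in the input and 735, 1243 and 881 in the IP in HET and 862, 778 and 722 in the input and 434, 487 and 497 in the IP in KO, a difference of -0.92 ± 0.23 (adjusted p = 0.0213).

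Psmd12 went the other way. It had 1034, 1146 and 987 in the input and 969.6, 1193 and 975 in the IP of HET, and 1125, 1228 and 1114 in the input and 1546, 1826 and 2067 in the IP in KO. Only in the KO IP did all libraries stand above the rest, and the difference was 0.66 ± 0.19 (adjusted p = 0.0386). Just outside the threshold lay Psma3 (-0.75 ± 0.23, adjusted p = 0.053), Psmd3 (-0.85 ± 0.27, 0.0535), Psmb3 (-1.53 ± 0.48, 0.0559) and Psmg3 (-1.63 ± 0.57, 0.08). The authors' deposited table of this difference, from the same libraries, gives an adjusted p for 44 proteasome genes. It calls 9 of them lower, the 6 above with Psma3, Psmb3 and Psmd3, and 3 higher, Psma5, Psmd11 and Psmd12. The share of all genes that it calls was not counted here. In that deposited table Psma4 has a log2 value of -1.54 (adjusted p = 4.14e-09) and Psma5 one of 1.89 (adjusted p = 0.0297), against 1.48 ± 0.56 (adjusted p = 0.101) for Psma5 with limma here.

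**Figure D2:**
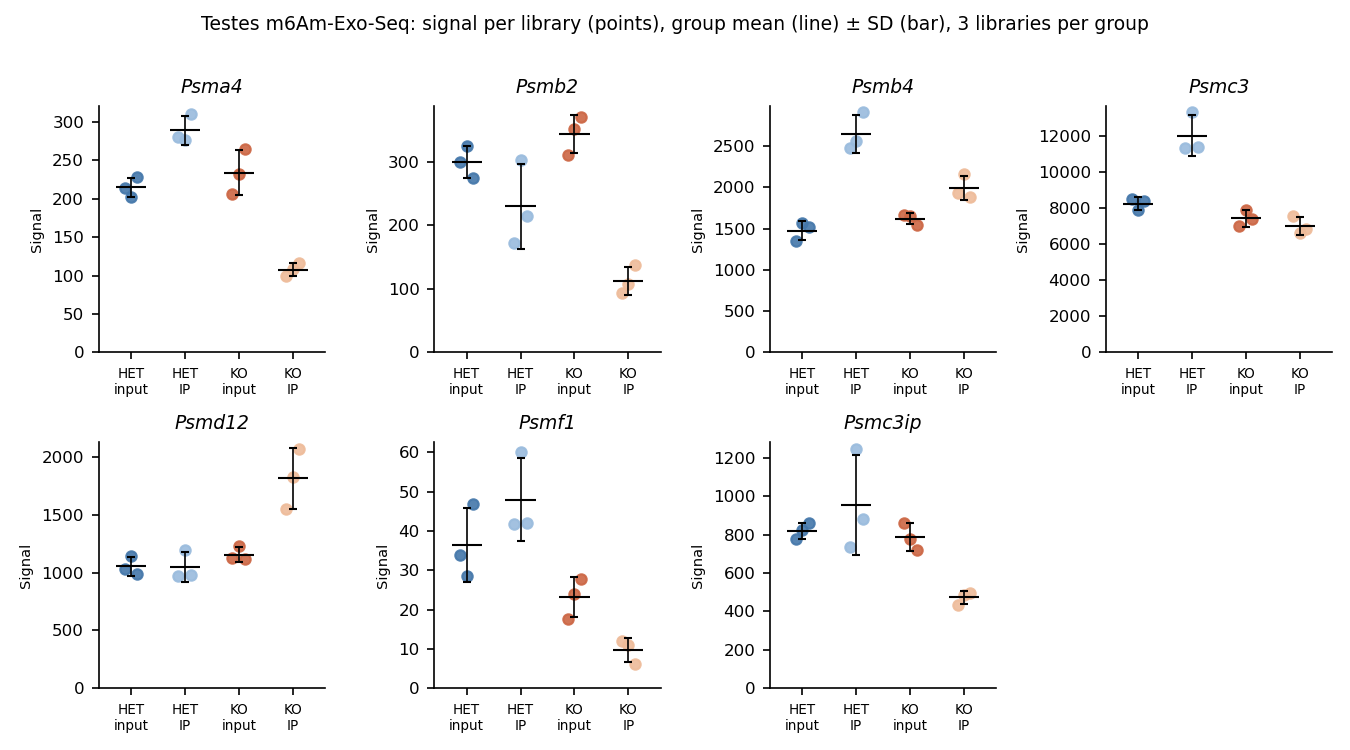
Signal per library (points, linear axis from 0), group mean (line) and SD (bar) for the 7 genes whose IP enrichment differed between genotypes, in HET input, HET IP, KO input and KO IP, 3 libraries each. The KO IP points of Psma4, between 98.8 and 116, lie below all other libraries, and those of Psmd12 above them.

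Of these 7 calls, 5 were lost in some alternative. Leaving out 1 library left 2 lower without HET input replicate 2 or KO input replicate 2, and 3 without HET input replicate 1, HET input replicate 3 or KO input replicate 3. The call of Psmd12 was lost without a filter and without each input library in turn, HET IP replicate 3, KO IP replicate 2 or KO IP replicate 3, and without HET IP replicate 1 there were 2 higher genes (adjusted p up to 0.103 over its alternatives). The adjusted p reached 0.128 for Psmb4, 0.077 for Psmc3, 0.0613 for Psmc3ip and 0.103 for Psmf1. On whole reads edgeR gave 2 higher and 7 lower, and DESeq2 3 and 9, and without a filter on low values limma gave 0 and 3. Calls over all genes moved too, from 461 higher and 774 lower to 754 and 1028 with DESeq2 and 257 and 536 without a filter. At an unadjusted p under 0.05, edgeR and DESeq2 each gave 38.6% of the proteasome genes, against 27.7% and 26.7% of all genes. At an unadjusted p under 0.05, limma gave 4 higher and 12 lower (36.4%, against 26.6% of all genes). Marker lists differed here as well: of the round spermatid list 4 of 11 tested were lower with a median of -0.73, of the spermatocyte list 3 of 11 with a median of -0.85, and of the Sertoli list 2 of 6 were higher with a median of 0.92. In the elongating spermatid list 1 of 10 was lower (median -0.31), and in the spermatogonia list 1 of 8 was lower (median 0.34). The Leydig and testis immune lists had 0 calls. Whether they bear on the proteasome genes was not tested.

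**Figure D3:**
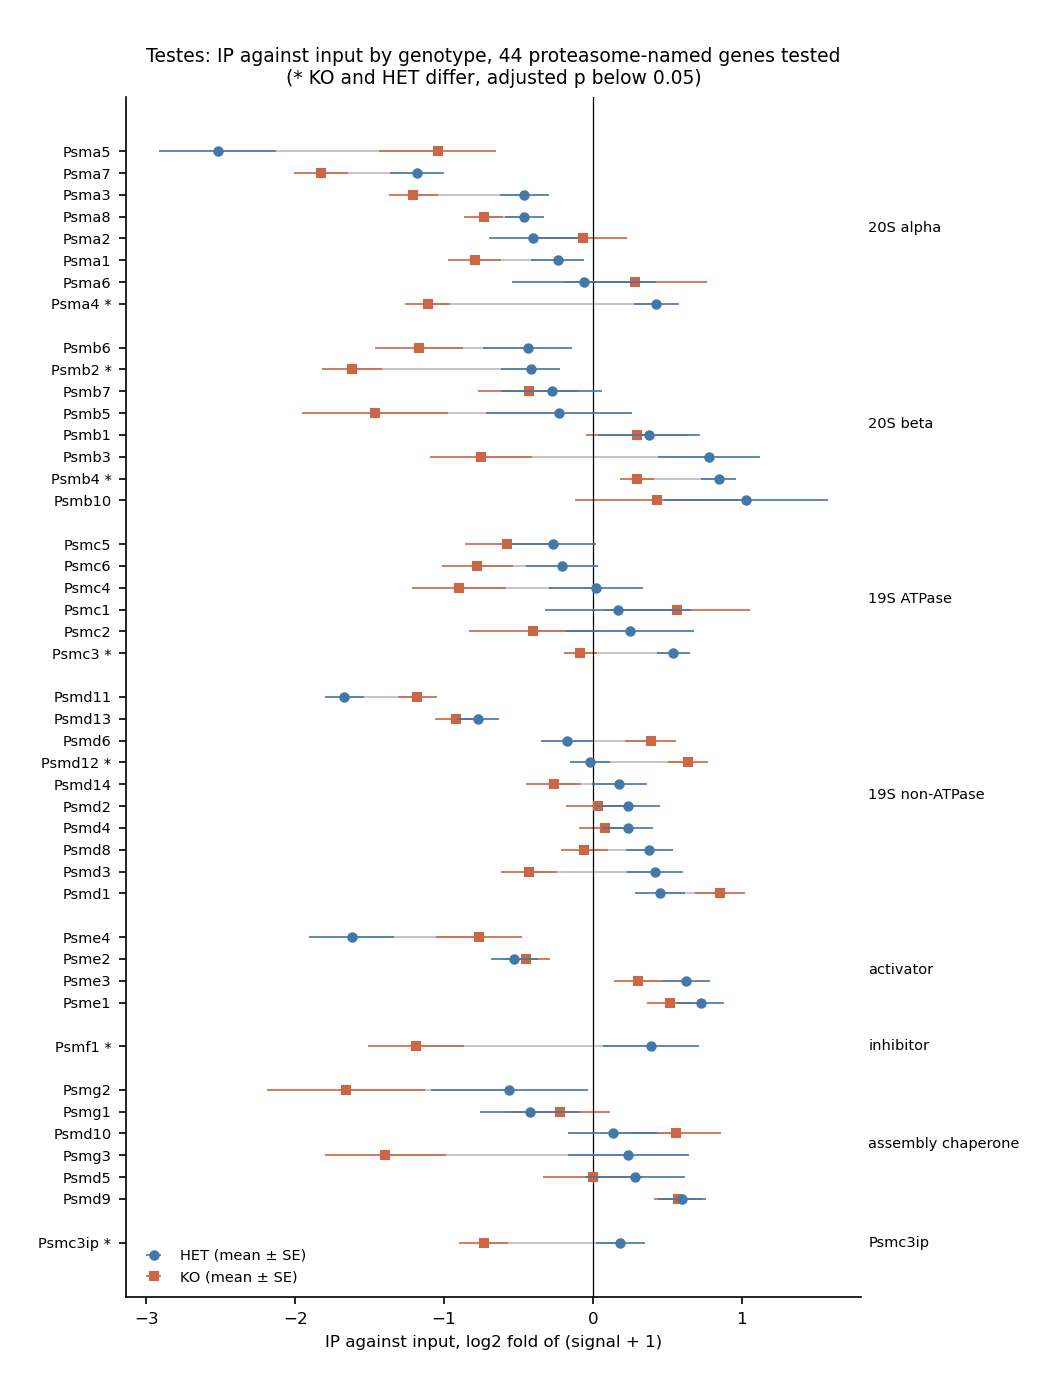
Log2 fold of IP against input (signal + 1) with SE for each of the 44 tested genes, grouped by role, in HET (circles) and KO (squares), from limma on 12 libraries. Asterisks mark the 7 genes whose enrichment differed between genotypes, and the KO squares of all 8 tested beta ring genes lie left of their HET circles.

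Levels in the IP alone, KO against HET, share their libraries with the difference above and are given for comparison of size. Of 43 genes tested 3 were higher and 9 lower, while 26.3% of all 11345 genes were called, 11.5% higher and 14.8% lower, and the median was -0.19 against 0.01 over all genes. IP libraries did not overlap between genotypes for 5 genes on the higher side (20.9% of all genes) and 14 on the lower side (22.1%). Psmf1 had the largest fold, -2.21 ± 0.41 (adjusted p = 0.0025), followed by Psma4 (-1.42 ± 0.21), Psmb2 (-1.0 ± 0.26), Psmc3ip (-0.98 ± 0.21), Psmd3 (-0.92 ± 0.25), Psma3 (-0.80 ± 0.21), Psmc3 (-0.78 ± 0.16), Psmd8 (-0.67 ± 0.20) and Psme3 (-0.60 ± 0.21). The higher ones were 3 19S genes: Psmd6 (0.82 ± 0.24), Psmd12 (0.79 ± 0.18) and Psmd1 (0.64 ± 0.22). Psmd6, a lid subunit, had 137, 109.7 and 98.3 in HET and 231, 178 and 200.0 in KO, and Psmd3, a lid subunit as well, 149, 182 and 137 in HET and 65.9, 83.7 and 97.3 in KO. Psmd8 had 4572, 2751 and 3878 in HET and 2512, 2394 and 2036 in KO, and Psma3 594, 413 and 613 in HET and 271, 341 and 309.9 in KO. None of these 4 genes overlapped between genotypes in the IP. The higher calls were 1 without HET IP replicate 3, KO IP replicate 1 or KO IP replicate 3, and the lower calls 4 without KO IP replicate 1; with the spread over all 12 libraries 7 were higher. The round spermatid markers summed to 7338 to 9076 in the HET IP and 4360 to 4683 in the KO IP, the elongating spermatid markers to 26090 to 48440 and 17420 to 18200, and the 9 Sertoli markers to 586.3 to 711.1 and 823.6 to 948.9, and their part in these folds was not tested.

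The annotated first base can be set beside these values. Over all genes with 1 kind of first base, those starting with A had a median enrichment in HET of 0.14 (2193 genes), against -0.06 for C, -0.05 for G and 0.001 for T, and a median difference, KO minus HET, of -0.10, against -0.01, 0.03 and -0.08. Of these A-starting genes 8.44% were called lower in the difference, against 6.32% with C, 5.69% with G and 6.16% with T. Called higher in the difference were 62 of 2193 genes with A, 38 of 1060 with C, 170 of 3622 with G and 21 of 633 with T. Within HET, 405 of the A-starting genes were higher and 246 lower (11.2%). Among the proteasome genes, 10 tested genes start with A, with a median enrichment of 0.31 in HET (2 higher, 3 lower) and a median difference of -0.46, and 0 of the 10 were called in the difference. The 17 starting with G had medians of 0.14 and -0.20 with 1 higher and 2 lower in the difference, and the 7 starting with C -0.18 and -0.55 with 2 lower. Psmd9 and Psme3, which start with A in the windows above, were enriched in HET, and their differences were -0.03 ± 0.23 and -0.32 ± 0.23 (adjusted p = 0.958 and 0.39). Psma7, also with A, was depleted in both genotypes, with a difference of -0.65 ± 0.25 (adjusted p = 0.115). Psmb3 had the largest difference of the A-starting genes, from input values of 21.3, 19.4 and 18.3 and IP values of 25.4, 39.8 and 40.2 in HET to 24.8, 32.2 and 22.9 in the input and 21, 8.81 and 18.9 in the IP in KO. Annotated starts need not be the starts used in testes, and RefSeq matched no promoter of Psmb2 or Psmc3.

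The genes around the particle moved in both directions in the IP. In the difference, KO minus HET, 1 of 29 tested pathway genes was higher (3.72% of all genes) and 3 were lower (6.25% of all genes), with a median of 0.13. Nfe2l1, the transcription factor known to raise proteasome genes when proteasomes are blocked, had an input signal of 83, 71.1 and 79.7 in HET and 83.3, 96.8 and 94.1 in KO. Its IP signal was 134, 127 and 162 in HET and 425, 368 and 434 in KO, so that all KO IP libraries stood far above the rest, and the difference was 1.31 ± 0.23 (adjusted p = 0.00354). Ufd1 was among the lower ones (-0.64 ± 0.18, adjusted p = 0.0367). Within HET 2 of the 29 were enriched (14.7% of all genes) and 8 depleted (15.4%), and within KO 5 (21.2%) and 8 (24.3%). No antigen presentation gene was called in the difference of 7 tested, and Tap1 had 1.14 ± 0.62 (adjusted p = 0.254).

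In WT brain, the signal of most proteasome genes was higher in ribosome footprints than in input RNA. Of 46 tested, 29 were higher and 1 was lower, while 54.3% of all 16527 genes were called, 25.2% higher and 29.1% lower. The median log2 ratio of footprint to input was 0.60 against -0.09 over all genes, with 40 of 46 above 0. The core stood highest, with a median of 1.04 and 12 of 16 genes higher, followed by the regulatory genes with 0.54 and 16 of 24 higher and 1 lower. The 7 assembly chaperones had a median of 0.07, which turned to -0.19 when scaled to the protein-coding total, and none of them was called. Of the marker lists of brain cells, 9 of 10 neuron, 8 of 9 oligodendrocyte, 7 of 8 astrocyte, 5 of 9 microglia and 1 of 7 endothelium markers were higher, with 1 astrocyte and 1 endothelium marker lower. Libraries did not overlap for 32 genes on the higher side (28.4% of all genes) and for 1 on the lower side (32.6%). Scaling to the protein-coding total moved the median of all genes to -0.36 and that of the proteasome genes to 0.34, with 22 genes higher and 2 lower, and over all genes 3180 higher and 5998 lower (34.6% of the calls higher, from 46.4%).

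Psmb2, a beta ring subunit, had the largest ratio, with an input signal of 46.1, 37.3 and 44.4 and a footprint signal of 395, 575 and 447, a log2 value of 3.43 ± 0.18 (adjusted p = 5.28e-08). The ATPase Psmc4 had 174, 205 and 174 in the input and 851, 732 and 872 in footprints (2.15 ± 0.14). Psmb3 had 216, 215 and 212 in the input and 1115, 719 and 928 in footprints (2.08 ± 0.14). In each of the 3 every footprint library exceeded every input. Psmf1 (1.92 ± 0.38), Psme1 (1.72 ± 0.27), Psma3 (1.47 ± 0.18), Psma6 (1.43 ± 0.15), the cutting subunits Psmb6 (1.37 ± 0.23) and Psmb5 (1.19 ± 0.22), the low immune subunit Psmb8 (1.37 ± 0.42) and Psmd3 (1.26 ± 0.17) followed. The third cutting subunit, Psmb7, had 527, 612 and 494 in the input and 571, 757 and 484 in footprints, overlapping groups with a ratio of 0.13 ± 0.18 (adjusted p = 0.559). Psme4 was the 1 lower gene, with 302, 431 and 351 in the input and 84.6, 155 and 97.7 in footprints, a ratio of -1.71 ± 0.25 (adjusted p = 0.00017). Its 3 footprint libraries all lay far below its inputs. Of the 30 calls 22 were kept in each alternative.

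**Figure D4:**
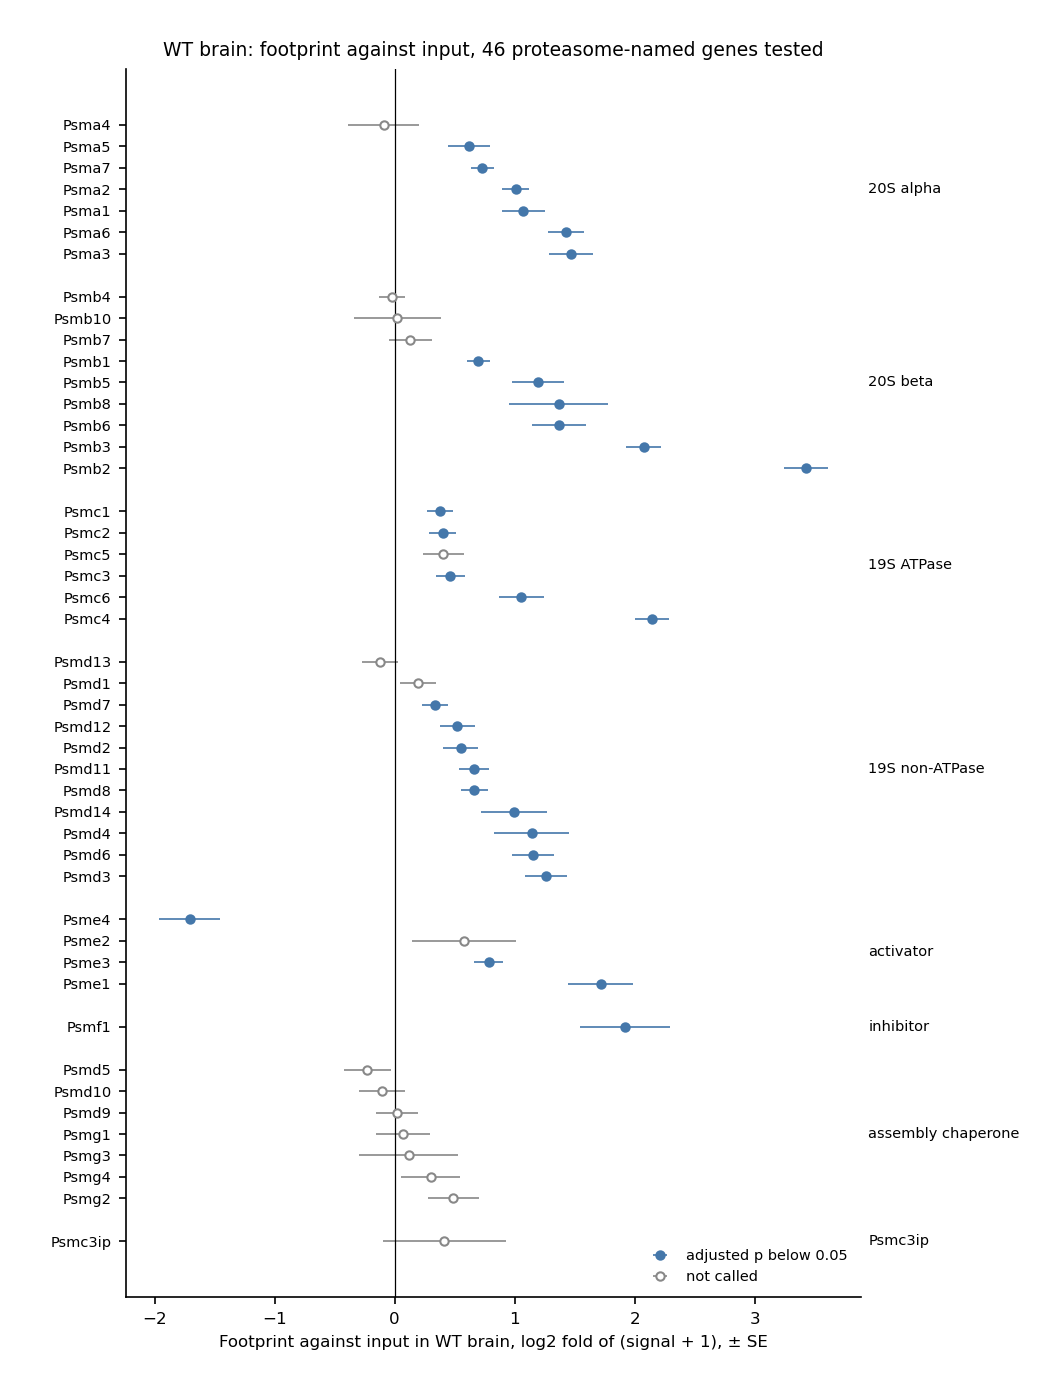
Log2 ratio of footprint to input signal (signal + 1) with SE in WT brain for the 46 tested genes, by role, from limma, with filled points at an adjusted p below 0.05. Psmb2 stands highest at 3.43 and Psme4 lowest at -1.71, and the 7 assembly chaperones lie near 0 with open points.

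Before the genotypes are compared in footprints, 1 library needs to be named. WT footprint replicate 2 lay nearer to the KO mean than to the mean of the other WT libraries in 35 of 46 proteasome genes (76.1%), against 9 (19.6%) for replicate 1 and 11 (23.9%) for replicate 3. It was the lowest of the 3 WT libraries in 23 of 46 genes and the highest in 17. Its median absolute log2 deviation from the mean of the other WT libraries was 0.34, against 0.25 and 0.19 for replicates 1 and 3. Over all genes these values were 0.48, 0.36 and 0.29, so replicate 2 deviated most there as well. Nearness to the KO mean was counted in the proteasome genes only, so it is not shown to be particular to them. Comparisons of footprints between genotypes are therefore given with and without WT footprint replicate 2. The WT footprints against input gave 29 proteasome genes higher and 1 lower without it as well, with a median of 0.64.

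In brain input RNA no proteasome gene passed the test between KO and WT, of 45 tested with limma. Over all 15298 genes 0.255% were called, 0.176% higher and 0.0784% lower. At an unadjusted p under 0.05, Psma7, Psmb5 and Psmc1 were higher and Psmb6 and Psmg4 lower (11.1% of the genes, against 10.5% of all genes). Psma7 had 312, 298 and 296 in WT and 391, 379 and 404 in KO, with a log2 fold of 0.37 ± 0.0882 (adjusted p = 0.255). Psmb6 had 299, 291 and 241 in WT and 233, 184 and 202 in KO (-0.42 ± 0.14, adjusted p = 0.39), and Psmg4 37.4, 31.1 and 36.1 in WT and 21.3, 14.5 and 22.8 in KO (-0.82 ± 0.27, adjusted p = 0.382). These 3 genes did not overlap between genotypes, as was so for 7 proteasome genes on the higher side (10.6% of all genes) and 4 on the lower side (7.84%). The median was 0.08 against 0.02 over all genes. The oligodendrocyte and microglia sums given above differed between these same libraries, and their part in these values was not tested.

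The immune subunits and activators did not pass the test in brain inputs where they were tested. Psmb8 had 8.29, 4.78 and 13.6 in WT and 6.09, 5.91 and 10.2 in KO inputs, and Psmb9 5.61, 5.29 and 5.94 in WT and 6.52, 1.46 and 4.90 in KO. Psmb10 had 122, 70.8 and 78.1 in WT and 149, 93.4 and 139 in KO, overlapping groups with a fold of 0.51 ± 0.27 (adjusted p = 0.548). Psmb11 reached 29.1 in KO replicate 2 and lay between 2.10 and 6.30 in the other inputs. Psma8, at 573.5 to 721 in testes inputs, lay between 0.31 and 4.36 in brain inputs, on separately scaled tables. Psme1 had 50.1, 67.8 and 71.7 in WT and 81.5, 70.6 and 50.1 in KO, Psme2 46.9, 106 and 89.8 in WT and 93.5, 38.7 and 65 in KO, and Psme3 201, 231 and 229.6 in WT and 258, 257 and 242 in KO, with folds of 0.08 ± 0.25, -0.30 ± 0.41 and 0.20 ± 0.11. Psme4 had 302, 431 and 351 in WT and 397, 454 and 481 in KO, with a fold of 0.31 ± 0.15. Psme3 alone of these did not overlap between genotypes, and its adjusted p was 0.549. The other chaperones, Psmg1 to Psmg3, Psmd5, Psmd9 and Psmd10, had folds from -0.18 to 0.26.

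In footprints no proteasome gene passed the test between KO and WT with all 6 libraries, of 46 tested with limma. Over all 14377 genes 0.223% were called, 0.146% higher and 0.0765% lower. At an unadjusted p under 0.05, Psmb1 was higher and Psmb6, Psmb8, Psmd3 and Psmd9 were lower (10.9%, against 10.8% of all genes). The median was 0.01, the same as over all genes to 2 decimals, and KO and WT libraries did not overlap for 6 genes on the higher side (8.46% of all genes) and 6 on the lower side (8.74%). Psmb6 had 1044, 501 and 698 in WT and 434, 375 and 351 in KO, with a log2 fold of -0.89 ± 0.27 (adjusted p = 0.411). Psmd3 had 1445, 821 and 1060.4 in WT and 769, 748 and 701 in KO (-0.55 ± 0.21, adjusted p = 0.44), and Psmb1 873, 947 and 862 in WT and 1159, 1084 and 1147 in KO (0.34 ± 0.13). The groups did not overlap in these 3 genes, and replicate 2 was the lowest WT library in Psmb6 and Psmd3. In the same footprint libraries the oligodendrocyte markers summed to 35650 to 52150 in WT and 61830 to 68800 in KO (0 of 9 called, 9 of 9 above 0), and the microglia markers to 2315 to 3242 in WT and 1904 to 1932 in KO (0 of 9 called). Without WT replicate 2, 3 of the 9 oligodendrocyte markers were higher and 2 of the 9 microglia markers lower. Of 10 neuron markers 1 was then higher and 1 lower, of 8 astrocyte markers 1 was higher, and of 7 endothelium markers 0 were called. Over all genes 3.31% were higher and 3.46% lower without that library. The part of these markers in the footprint results was not tested.

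Since WT footprint replicate 2 was singled out by its nearness to KO in these same genes, leaving it out widens the gap between genotypes by construction, and the p-values without it hold only given that choice. Without it, 6 proteasome genes were lower in KO footprints and 0 higher, of 46 tested, while 3.46% of all 14120 genes were then lower and 3.31% higher. Psmd4, the ubiquitin receptor of the 19S particle, had 1215, 460.4 and 1286 in WT and 590.4, 662 and 598 in KO, so replicate 2 lay below all KO libraries and the other 2 above them. Its fold was -0.54 ± 0.38 (adjusted p = 0.582) with all libraries and -1.02 ± 0.12 (adjusted p = 0.0148) without replicate 2. Psmb5 had 948, 503 and 975 in WT and 654, 613 and 511 in KO, with -0.39 ± 0.27 (adjusted p = 0.581) and -0.71 ± 0.14 (adjusted p = 0.0424). Psmd14 had 738, 302 and 704 in WT and 476, 402 and 416 in KO, with -0.33 ± 0.34 and -0.74 ± 0.13 (adjusted p = 0.0324). In these genes replicate 2 lay below the KO libraries, and the other WT libraries above them. Psmf1 had 384, 138 and 346 in WT and 187, 150.1 and 178 in KO, with -0.62 ± 0.38 and -1.09 ± 0.17 (adjusted p = 0.0242). For Psmb6 the fold was -1.15 ± 0.21 and for Psmd3 -0.74 ± 0.16 (adjusted p = 0.0326 and 0.0465) without that library. No other left-out library gave a call among the proteasome genes in footprints, and why replicate 2 stands apart was not tested.

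**Figure D5:**
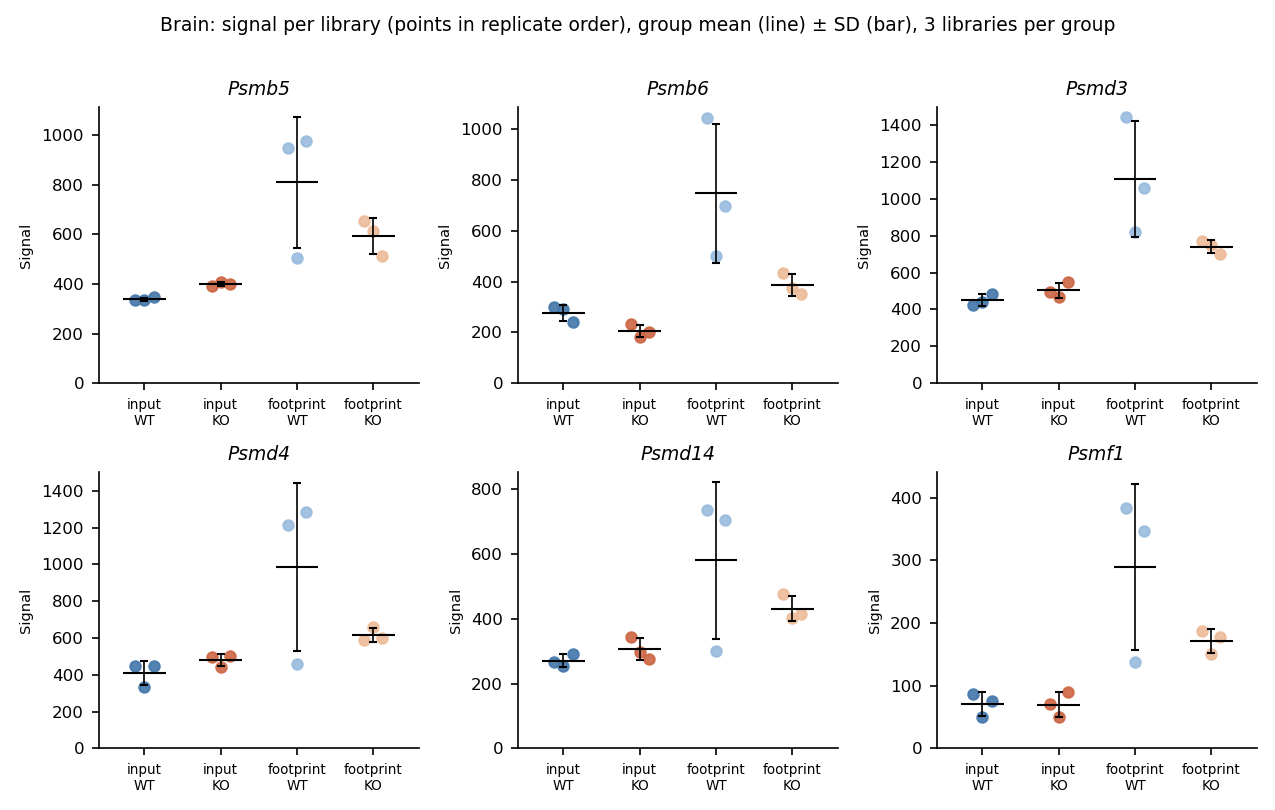
Signal per library in replicate order (points, linear axis from 0), group mean (line) and SD (bar) in brain inputs and footprints of WT and KO mice, 3 libraries each, for the 6 genes lower in KO footprints without WT footprint replicate 2. The middle WT footprint point lies at 460.4 for Psmd4 and 302 for Psmd14, below the KO points, while the outer 2 lie above them.

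Translational efficiency, the footprint signal relative to input, was compared between KO and WT as an interaction over all 12 brain libraries. No proteasome gene passed limma's test, of 46, and 0.188% of all 16527 genes did, 0.0908% higher and 0.0968% lower. At an unadjusted p under 0.05, Psmb1 was higher (0.33 ± 0.14) and Psma7 (-0.31 ± 0.14), Psmd3 (-0.71 ± 0.25) and Psmd9 (-0.60 ± 0.25) were lower (8.7%, against 9.78% of all genes). The median was -0.08 against -0.004 over all genes. Without WT footprint replicate 2, Psmd4 (-1.26 ± 0.19, adjusted p = 0.00907), Psmb5 (-0.94 ± 0.15), Psmd14 (-0.92 ± 0.17) and Psmd3 (-0.91 ± 0.18) were lower and the ATPase Psmc5 (0.56 ± 0.14, adjusted p = 0.0469) was higher, while 2.66% of all genes were called in each direction. The authors' deposited table of this comparison gives an adjusted p for 47 proteasome genes and calls 0 of them.

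The related genes had no call between genotypes in brain with all libraries. Of 31 tested pathway genes 0 were called in input, footprints or translational efficiency, with medians of -0.01, -0.09 and -0.19. Without WT footprint replicate 2, 1 was higher (3.31% of all genes) and 4 lower (3.46%) in footprints. In translational efficiency 1 was higher and 6 were lower without it (2.66% of all genes in each direction). In WT brain 19 of the 31 were higher in footprints than in input (25.2% of all genes) and 7 lower (29.1%), the same counts without that replicate, with a median of 0.68. Usp14, the deubiquitinase that binds the 19S particle, had a ratio of 1.93 ± 0.20 and Nfe2l1 one of -0.52 ± 0.12 (adjusted p = 0.00268). Of 9 tested antigen presentation genes 7 were higher in WT footprints than in input, with a median of 1.11 (6 without replicate 2). Between genotypes 0 of the 9 were called, and without replicate 2 1 was higher in footprints.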

How the data were processed

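The authors deposited 1 table per assay, with a signal per gene and library (reads scaled by 1 factor per library in testes), and with their own log2 folds and adjusted p-values. The submitters' processing notes list STAR, Salmon 0.12.0, DESeq, R 3.6.2 and DESeq2 1.25.10, without roles. For build, annotation and strand use, nothing is stated in the sources used here. In testes 100% of values were whole reads within 0.01; in brain 1.78 to 2.33% were, so count models were run on testes only. Fits used limma 3.58.1 (R 4.3.3, empirical Bayes with trend) on log2(signal + 1), for genes reaching a signal of 10 in 3 or more libraries of the fit, adjusted by Benjamini-Hochberg over all genes with a threshold of 0.05. The pseudocount understates folds of low genes. Alternatives were other scalings, pseudocounts, no filter, left-out libraries, edgeR 4.0.16 and DESeq2 1.42.0. The script was tested on simulated data. Named genes were those called, at most 12 per comparison by fold, and the alternative subunits, activators, inhibitor and chaperones. Members, lists and rules were chosen with earlier results of these data known. Lists not given above had no call: Leydig markers (0 of 3 called) and testis immune markers (0 of 1) in testes inputs, and neurons (0 of 10) and endothelium (0 of 7) in brain inputs. Some genes of the pathway list are not reported by name here.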

Additional observations from a re-analysis of the deposited data

Results flagged for a closer look

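For 7 genes the effect of the IP differed between HET and KO testes by the test of that difference (limma, Benjamini-Hochberg adjusted p below 0.05). On the log2 scale the difference, KO minus HET, was -1.54 for Psma4, -1.20 for Psmb2, -0.55 for Psmb4, -0.63 for Psmc3, -0.92 for Psmc3ip, 0.66 for Psmd12 and -1.58 for Psmf1.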

How the results depend on the processing

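No direction of a called gene turned in any alternative. Over single genes, 6114 comparisons kept their side of the threshold, 173 lost a call and 77 gained one. With the spread over all 12 libraries, the proteasome genes higher in testes inputs went from 4 to 0 and those higher in the KO IP against the HET IP from 3 to 7. Scaling to the protein-coding total changed the genes enriched within KO from 5 to 3 and those with fewer footprints than input in WT from 1 to 2. In the difference KO minus HET, higher genes went from 1 to 0 without a filter, 2 with edgeR and 3 with DESeq2, and lower genes from 6 to 3 without a filter. The cause was not tested.

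Leaving out 1 library gave 0 to 6 higher and 0 to 2 lower in testes inputs, 5 to 9 lower within HET, 3 to 6 higher and 11 to 20 lower within KO, 0 to 2 higher and 2 to 9 lower in the difference, 1 to 4 higher and 4 to 8 lower in the IP by genotype, 0 to 6 lower in footprints, and 0 to 1 higher and 0 to 4 lower in translational efficiency. Over all genes, input calls in testes ranged from 10 to 635 higher and 15 to 702 lower with all libraries kept (374 and 678 as reported) and from 95 to 494 and 186 to 939 with 1 left out. The difference ranged from 257 to 754 higher and 536 to 1028 lower (461 and 774), and from 143 to 717 and 403 to 1012 with 1 left out. The IP by genotype reached 2219 higher and 2561 lower with the shared spread (1308 and 1680), and 706 and 900 with HET IP replicate 3 left out. Brain inputs fell to 3 and 2 at the lowest (27 and 12). Footprints ranged up to 96 and 66 with the shared spread and from 0 to 468 and 0 to 488 with 1 left out (21 and 11), and translational efficiency up to 26 and 18, and from 6 to 437 in both directions with 1 left out (15 and 16).

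No paired analysis was possible because the labels carry no replicate numbers. Low signal limits the testes results: Psmb8, Psmb9, Psmb11, Psmd7, Psme2b and Psmg4 were not tested there. Why their signal was low was not tested, and brain depth is unknown.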
